A study of Mus musculus with 4 samples.

Results

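The genes described here are those of glycolysis and of the response to low oxygen. They are a set of 37 symbols chosen by name from knowledge of the pathways, with earlier results of these data known. The array carried 36 of them among 30199 gene or probe names, read by 58 probes. The symbol Pkm2 is not on the array, which lists pyruvate kinase as Pkm. Of the 36 genes, 35 gave a signal well above background on all 4 arrays, while the 4 signals of Mxi1, a MYC antagonist, all failed to clear the background. The glycolytic side held 22 of the 35 measured genes (4 glucose and lactate carriers, 9 enzymes down to the triose phosphates, 6 from there to pyruvate and 3 that handle pyruvate), and the hypoxia side held 13 (3 oxygen sensing genes and 10 other targets).

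Transcripts were measured in E14tg2a, a line of mouse embryonic stem (ES) cells, on 1 one-color Agilent array for each of 4 conditions. The cells were untreated (0 h), transfected with control siRNA and harvested at 72 h, or transfected with siRNA against Rif1 and harvested at 48 h or at 72 h; per the methods, the Rif1 siRNA was mRif1#2 plus NC#1. All 4 cultures shared a medium with fetal bovine serum, mouse leukemia inhibitory factor and sodium pyruvate, and the labels name no genetic change in the line. No control siRNA array at 48 h was used here, so the 48 h array was also set against control cells harvested at 72 h. With 1 array for each condition no difference could be tested, no p-value is given, and every difference below is between 2 arrays and not between conditions in general.

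Rif1 is a chromatin protein that sets replication timing and represses transcripts of the two-cell embryo in ES cells. Glycolysis splits glucose to pyruvate, which lactate dehydrogenase turns into lactate or the mitochondria oxidize. Serum-grown ES cells are known for high glycolytic flux. When oxygen is low, prolyl hydroxylases of the Egln family no longer mark the transcription factor subunit Hif1a for degradation, and it then binds hypoxia response elements (core ACGTG or GCGTG) and raises genes for glucose uptake, glycolysis, blood vessel growth and collagen hydroxylation. Since Hif1a is controlled mostly as a protein, its transcript does not report its activity.

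A level below is the processed signal of a gene's probe divided by the 75th percentile of that array. Levels are given in the order untreated, control siRNA 72 h, Rif1 siRNA 48 h and Rif1 siRNA 72 h, are compared between arrays and not between genes, because probes differ in how well they hybridize; bright genes below are those with a high signal, which need not mean more transcript. A difference is the log2 of the ratio of 2 levels, and a gene is called past a fold when it reaches 1.5-fold or, where said, 2-fold. As a yardstick, the log2 difference between control siRNA and untreated cells had an SD of 0.256 over 22548 probes, which is no replicate error since these conditions differ as well. The same SD was 0.505 for Rif1 siRNA at 72 h against control siRNA. Probes spotted 10 times gave a median SD between spots of 0.0621 to 0.0670 on the log2 scale, a measure of spot noise only. Where a gene had several measured probes, the range of their differences had a median of 0.0408 and a largest value of 0.143 at 72 h against control siRNA. The largest range was 0.641 at 48 h against control siRNA, 0.291 for control siRNA against untreated and 0.758 for 72 h against 48 h. The arrays also differed in sensitivity: 58.8% and 62.8% of spots were well above background on the untreated and control siRNA arrays and 71.5% and 74.1% on the Rif1 siRNA arrays, and the lowest level well above background was 0.0236, 0.0159, 0.00779 and 0.00543. Its part in the differences of dim genes, such as Egln1, Adm, Slc16a1, Car9, Eno2 and P4ha1, was not tested.

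The Rif1 probe read 5.55, 5.42, 2.15 and 4.15. It was lower than in control siRNA cells by a log2 difference of -1.34 at 48 h and of -0.39 at 72 h, so its signal was lower on both arrays labelled Rif1 siRNA and stood nearer the control at the later time. All 12 ES cell markers examined, such as Pou5f1 and Nanog, were well above background on every array, with summed levels of 272, 276, 289 and 273. The 10 listed genes of the two-cell (2C) state on the array, which include Zscan4c, summed to 12.8, 21.8, 261 and 295, and 9 of 10 were past 2-fold higher at both times of Rif1 siRNA. Of all genes, 2.98% were past 2-fold higher at 72 h and 3.56% at 48 h. Of 6 trophoblast markers, 2 were past 2-fold higher at 72 h (median log2 difference 0.33) and 1 at 48 h (median 0.50), with summed levels of 4.05, 4.46, 4.05 and 4.28. Of 6 primitive endoderm markers, 0 were past 1.5-fold at 72 h and 1 was higher at 48 h, with summed levels of 2.58, 1.83, 2.16 and 1.56. Over all genes, 5.7% were past 1.5-fold higher and 2.93% lower at 72 h, and 7.25% and 3.98% at 48 h. In a bulk RNA sample, fewer cells of a type and less RNA per cell cannot be told apart, and the part of these other transcripts in the differences below was not tested.

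Few of the glycolysis and hypoxia genes were past 1.5-fold with Rif1 siRNA at 72 h. P4ha2, a catalytic subunit of collagen prolyl 4-hydroxylase, was the 1 member past 1.5-fold higher, against 5.7% of the 22428 genes tested, and 0 members were past 1.5-fold lower, against 2.93%. Past 2-fold, 0 members were higher and 0 were lower, against 2.98% and 1.57% of all genes. Of the 22428 genes, 18800 were well above background on both arrays, as were all 35 measured members. Bright genes were called less often. Of 2551 genes with a level over 10 on all 4 arrays, 4 were past 1.5-fold higher and 3 lower at 72 h. The 16 members in that class had 0 of either. At 48 h against control siRNA at 72 h, P4ha2 was again the 1 member past 1.5-fold higher, against 7.25% of 21733 genes, and 3 members (Eno2, Vegfa and Adm) were lower, against 3.98%. Of these, P4ha2 remained past 2-fold higher, where 3.56% of all genes were, and Eno2 and Adm past 2-fold lower, where 1.87% were. These 2 comparisons share the control siRNA array, so a gene that happened to read high there is lower in both. The members closest to the threshold from outside were Egln3 with a log2 difference of -0.53 and Eno2 with -0.44 at 72 h, and Ankrd37 with -0.55 and P4ha1 with 0.51 at 48 h; just inside at 48 h lay Vegfa with -0.79.

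**Figure D1:**
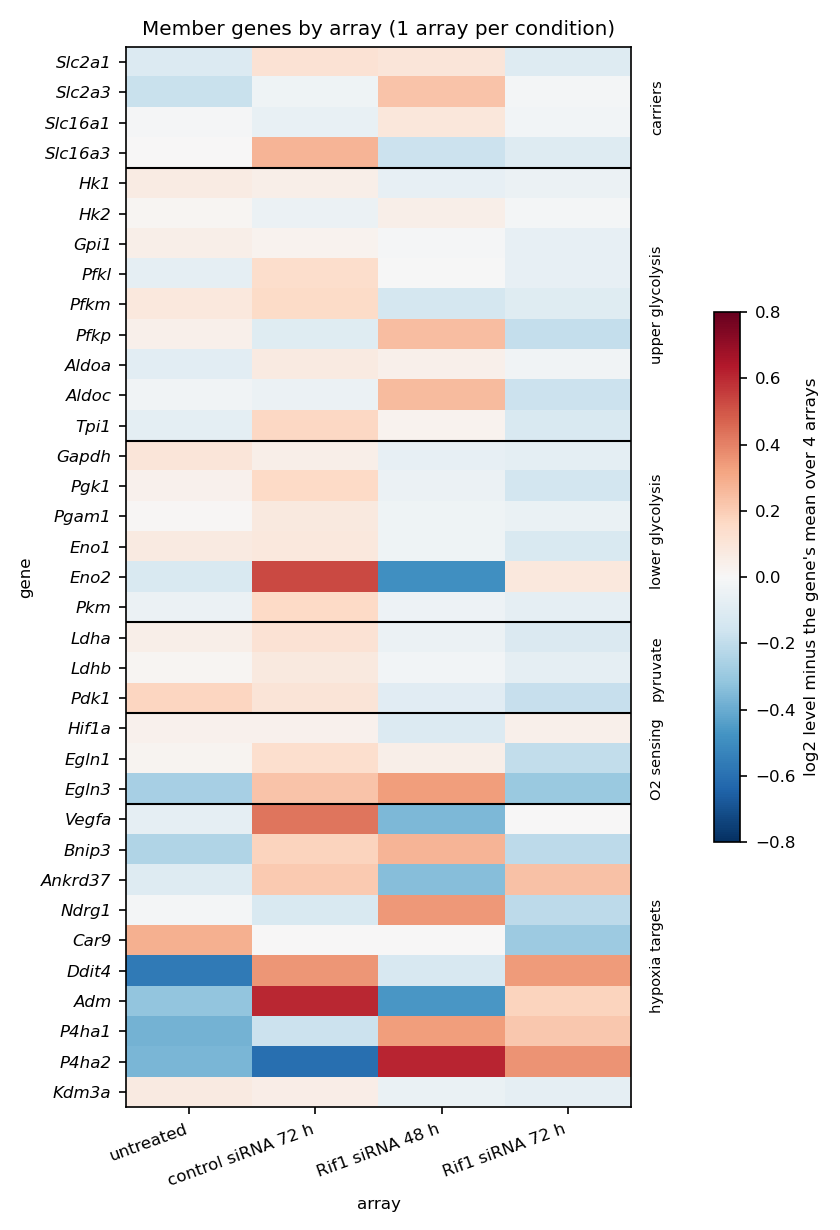
Log2 level of each of the 35 measured genes on each of the 4 arrays, minus that gene's mean over the arrays (color scale in log2 units), with black lines between role groups. Most glycolytic rows are pale, P4ha1 and P4ha2 are red on both Rif1 siRNA arrays, and Adm, Eno2 and Vegfa are red under control siRNA and blue under Rif1 siRNA at 48 h.

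Because the hypoxia response element is short, some promoters are shown so that its presence can be seen beside the values that follow. They are those of the 6 members past 1.5-fold in any of the 4 comparisons, and of P4ha1. Under the processing reported, P4ha1 passed that fold only against untreated cells. The windows are from RefSeq on GRCm38.p6, run 5′ to 3′ on the gene's strand from 250 bases before to 50 after the annotated start, and have in capitals each match to ACGTG or GCGTG on either strand (CACGT and CACGC are the reverse complements, and CACGTG is a match on both strands). P4ha2 (chr11:54100674-54100973, plus strand) and P4ha1 (chr10:59323046-59323345, plus strand) read higher on both Rif1 siRNA arrays than on both other arrays. Adm (chr7:110627407-110627706, plus strand), Eno2 (chr6:124769624-124769923, minus strand), Ddit4 (chr10:59951721-59952020, minus strand), Egln3 (chr12:54203825-54204124, minus strand) and Vegfa (chr17:46025114-46025413 for start A and chr17:46032328-46032627 for start B, minus strand) differed past 1.5-fold between at least 1 pair of arrays.
P4ha2: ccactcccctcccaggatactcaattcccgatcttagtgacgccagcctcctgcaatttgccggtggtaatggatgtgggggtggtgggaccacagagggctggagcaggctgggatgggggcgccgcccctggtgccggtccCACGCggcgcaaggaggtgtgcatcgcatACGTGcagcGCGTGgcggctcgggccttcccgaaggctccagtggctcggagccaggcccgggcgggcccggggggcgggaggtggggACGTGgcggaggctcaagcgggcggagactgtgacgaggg
P4ha1: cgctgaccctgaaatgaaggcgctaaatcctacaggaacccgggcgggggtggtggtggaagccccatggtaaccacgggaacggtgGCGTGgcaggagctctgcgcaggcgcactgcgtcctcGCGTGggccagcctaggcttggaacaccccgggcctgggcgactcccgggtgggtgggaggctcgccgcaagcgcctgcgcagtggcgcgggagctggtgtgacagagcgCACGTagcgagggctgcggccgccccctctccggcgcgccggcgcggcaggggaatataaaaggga
Adm: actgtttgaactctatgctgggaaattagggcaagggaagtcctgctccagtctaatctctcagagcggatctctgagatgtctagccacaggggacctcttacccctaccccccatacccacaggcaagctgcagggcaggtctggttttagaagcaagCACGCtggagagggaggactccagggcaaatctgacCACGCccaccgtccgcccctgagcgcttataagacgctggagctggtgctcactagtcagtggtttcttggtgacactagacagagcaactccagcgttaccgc
Eno2: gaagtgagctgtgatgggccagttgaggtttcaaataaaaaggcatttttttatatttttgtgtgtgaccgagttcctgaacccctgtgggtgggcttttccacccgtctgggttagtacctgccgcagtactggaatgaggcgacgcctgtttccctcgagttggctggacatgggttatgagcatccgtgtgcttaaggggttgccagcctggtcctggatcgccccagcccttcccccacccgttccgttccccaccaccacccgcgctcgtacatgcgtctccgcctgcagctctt
Ddit4: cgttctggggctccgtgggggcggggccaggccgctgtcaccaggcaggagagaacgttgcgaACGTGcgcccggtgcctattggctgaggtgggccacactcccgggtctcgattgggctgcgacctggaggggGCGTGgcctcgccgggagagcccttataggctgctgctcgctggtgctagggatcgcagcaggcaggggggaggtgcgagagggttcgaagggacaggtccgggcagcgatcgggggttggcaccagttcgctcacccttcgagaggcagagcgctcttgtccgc
Egln3: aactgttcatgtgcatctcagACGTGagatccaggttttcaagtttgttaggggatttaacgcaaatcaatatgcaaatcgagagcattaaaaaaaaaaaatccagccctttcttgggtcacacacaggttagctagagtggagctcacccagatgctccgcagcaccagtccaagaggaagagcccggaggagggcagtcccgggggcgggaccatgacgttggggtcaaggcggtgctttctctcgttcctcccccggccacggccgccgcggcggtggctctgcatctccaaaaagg
Vegfa start A: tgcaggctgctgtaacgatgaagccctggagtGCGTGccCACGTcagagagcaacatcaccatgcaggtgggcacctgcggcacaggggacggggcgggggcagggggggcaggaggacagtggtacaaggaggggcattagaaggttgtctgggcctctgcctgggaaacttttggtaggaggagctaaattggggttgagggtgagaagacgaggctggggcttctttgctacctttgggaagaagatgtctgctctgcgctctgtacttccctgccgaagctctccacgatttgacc
Vegfa start B: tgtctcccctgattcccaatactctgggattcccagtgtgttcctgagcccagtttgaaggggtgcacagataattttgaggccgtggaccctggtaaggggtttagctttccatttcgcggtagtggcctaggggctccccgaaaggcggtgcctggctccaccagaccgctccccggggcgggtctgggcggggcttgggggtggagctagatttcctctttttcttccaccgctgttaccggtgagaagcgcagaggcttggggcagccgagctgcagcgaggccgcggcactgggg

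The P4ha2 window held 4 matches, 2 of each core, and the P4ha1 window held 3. The Adm and Ddit4 windows held 2 each, the Egln3 window held 1 and the Eno2 window held 0, which says only that these letters are not in that stretch. The Vegfa window at start A held 2 and that at start B held 0. On the minus strand start A lies downstream of start B, so the matches at start A may fall in transcribed sequence. The short cores are common: 43.8% of all 32851 windows of the same length held at least 1, as did 39 of the 51 windows of member genes (76.5%). Any window of a member symbol on chromosome 18 was left out of the member counts, but not of those over all windows. By gene, 46.7% of 27025 genes had a match in some window, beside 18 of the 21 glycolytic members with a window and 13 of 13 on the hypoxia side, many of which are textbook targets and so known for such elements. Slc2a3 and Ndrg1 had no window in the table. A match is a description of the sequence and no evidence of binding, and the promoters with matches belonged to genes that stood higher, lower and level on the arrays.

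Both prolyl 4-hydroxylase subunits in the set read higher on both Rif1 siRNA arrays than on both others. Only P4ha2 was past 1.5-fold against control siRNA under the processing reported. P4ha2, read by 1 probe at chr11:53945032-53945091 on mm9, gave levels of 1.75, 1.48, 3.44 and 2.89. The lowest of the 4 values was that of control siRNA and both Rif1 siRNA arrays lay above both others. The log2 difference from control siRNA was 0.96 (1.95-fold) at 72 h and 1.21 (2.32-fold) at 48 h, and from the untreated array it was 0.72 and 0.98. Control siRNA differed from untreated by -0.24, within the SD over all probes. Over 11 ways of processing the arrays, counting the one reported, the 72 h difference lay between 0.94 and 1.08 and the 48 h difference between 1.19 and 1.33.

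P4ha1, the other catalytic subunit in the set, was dim and read 0.0906, 0.104, 0.149 and 0.137. Its log2 differences from control siRNA were 0.39 at 72 h and 0.51 at 48 h, below the 1.5-fold call, while those from untreated cells were 0.59 and 0.72. Over the same 11 ways of processing, the 72 h difference from control siRNA lay between 0.20 and 0.51. The 48 h difference lay between 0.30 and 0.62, so whether it passed the call depended on the processing. A second P4ha1 probe was too dim to compare with control siRNA. Since these enzymes hydroxylate collagen, the collagen genes among the fibroblast markers are set beside them. Col1a1 read 0.340, 0.341, 0.493 and 0.601, and Col1a2 read 0.316, 0.309, 0.451 and 0.545, log2 differences from control siRNA at 72 h of 0.82 for each. Col3a1, also a collagen gene among these markers, was not past 1.5-fold at 72 h. Of the 8 fibroblast markers, 6 could be compared at 72 h and 4 were past 1.5-fold higher (Col1a1, Col1a2, Dcn and Twist1), against 5.7% of all genes. At 48 h, when P4ha2 and P4ha1 were highest, 1 of 6 was, against 7.25%. The medians were 0.66 at 72 h and 0.42 at 48 h. Their summed level was 4.26, 3.84, 4.49 and 4.52. Most of that signal came from the Thy1 probe, so the sum says little of the other markers. Postn and Lum, which mark fibroblasts, stayed at background on all 4 arrays, and the part of such cells in the P4ha2 and P4ha1 values was not tested.

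Only Slc2a3, P4ha1 and P4ha2 of the 35 members lay higher on both Rif1 siRNA arrays than on both other arrays, where 17.9% of 17491 genes did. The reverse, both Rif1 siRNA arrays below both others, held for 12 members, where 44.2% of all genes did, so members were not more often on that side than genes at large. The 12 were 11 glycolytic genes and 1 hypoxia gene, Kdm3a. This order disregards size, and the gaps were small: Kdm3a, a histone demethylase, read 11.4, 11.3, 10.5 and 10.3.

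**Figure D2:**
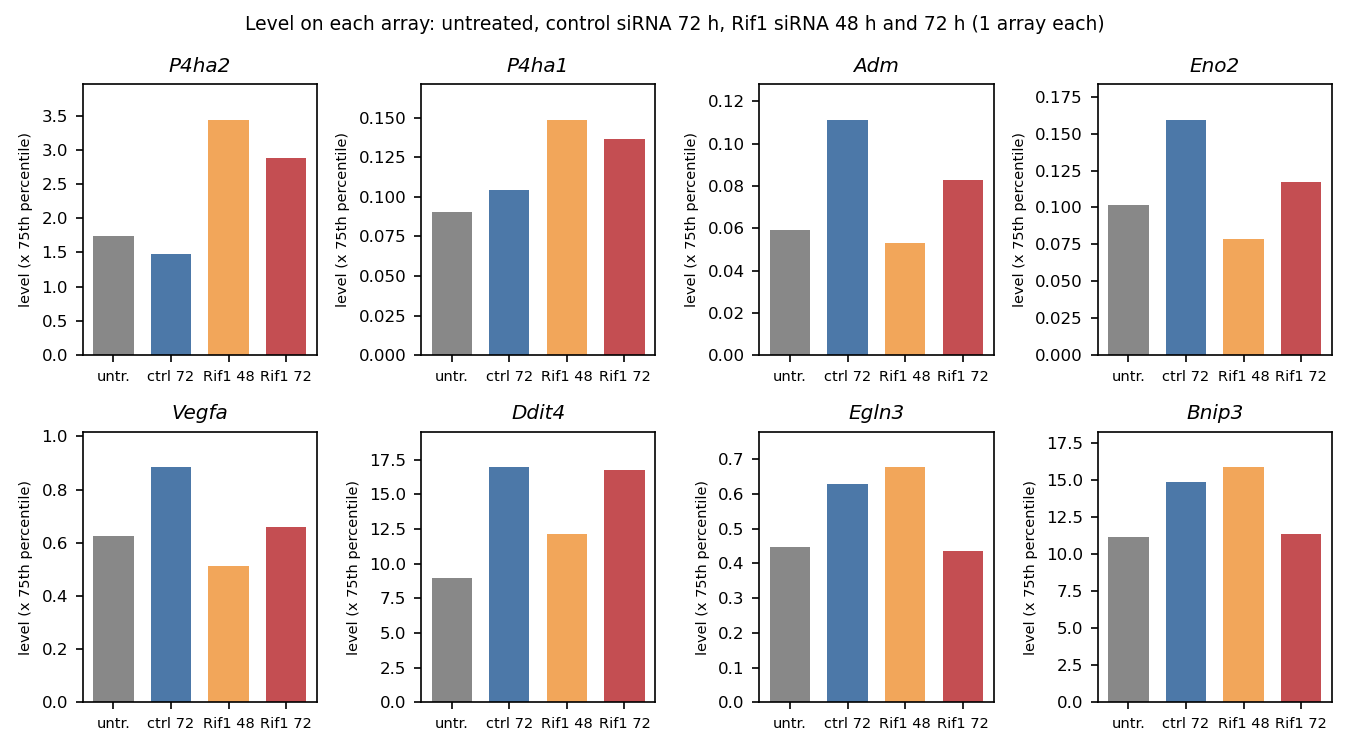
Level (signal over the array's 75th percentile, linear axis from 0) of 8 genes on the 4 arrays, 1 bar per array and so no error bar. P4ha2 and P4ha1 are high on both Rif1 siRNA arrays; Adm, Eno2, Vegfa and Ddit4 are higher under control siRNA than untreated; Egln3 and Bnip3 are lower under Rif1 siRNA at 72 h than at 48 h.

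Adm, Eno2 and Vegfa shared the pattern of a high value under control siRNA. Adm, which encodes the vasodilator adrenomedullin, read 0.0589, 0.111, 0.0530 and 0.0827, so the Rif1 siRNA array at 48 h lay at the untreated value and the array at 72 h between it and the control. Its log2 difference from control siRNA was -1.07 at 48 h and -0.43 at 72 h, whereas from untreated cells it was -0.15 and 0.49. Eno2, the neuronal enolase and the only glycolytic member past 1.5-fold in any comparison, read 0.102, 0.159, 0.0787 and 0.117. Against control siRNA it was lower by a log2 difference of -1.02 at 48 h and -0.44 at 72 h, and against untreated cells the 72 h difference had the other sign, 0.21. Vegfa, the vascular endothelial growth factor, read 0.624, 0.885, 0.512 and 0.659. Its difference from control siRNA was -0.79 at 48 h and -0.42 at 72 h, and a second probe gave -0.39 and -0.44, so that the 48 h call rests on 1 of 2 probes. For Adm and Eno2 the direction at 72 h thus depended on which control array was used. The main Vegfa probe was 0.08 above untreated cells at 72 h, while the second, at 0.179, 0.221, 0.168 and 0.162, was below both control arrays. With a normexp background correction the 48 h difference of Adm became -0.71 and that of Eno2 became -0.78.

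The control siRNA array read higher than the untreated one for 22 of the 35 members, beside 9176 of the 18623 genes with a difference or a bound. Past 1.5-fold, 3 members were higher (Ddit4, Adm and Eno2), against 2.34% of 19285 genes, and 0 were lower, against 3.39%. Ddit4, a stress-induced inhibitor of mTORC1 signaling, read 8.94, 17.0, 12.1 and 16.8. The 3 transfected arrays lay above the untreated one, and the log2 differences were 0.92 for control siRNA against untreated and -0.02 for Rif1 siRNA at 72 h against control siRNA. Adm followed with 0.92 and Eno2 with 0.65, and Vegfa (0.50) and Egln3 (0.49) lay just outside. With normexp, Adm (0.51) and Eno2 (0.40) no longer passed the call and Ddit4 did. The median over the 35 members was 0.07, over the glycolytic side 0.07 and over the hypoxia side 0.21, beside -0.00 over all genes. Each of these 3 medians of the members stayed above 0 under every processing tried, but with normexp the hypoxia median was 0.07. The untreated cells were harvested at 0 h and were not transfected, so transfection, time in culture and array cannot be told apart here. In the same comparison 9 of 10 2C genes were past 1.5-fold higher (median 0.96) and 3 of 6 primitive endoderm markers past 1.5-fold lower (median -0.57), and the part of such cells was not tested.

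Of the 16 members with a level over 10 on all 4 arrays, 12 read higher under control siRNA than untreated and 4 (Hk1, Gpi1, Gapdh and Kdm3a) read slightly lower, though the other 6 of 7 Gapdh probes, with differences of 0.03 to 0.17, read higher. Among the 2551 genes with a level over 10 on all 4 arrays, the log2 difference of control siRNA from untreated lay between -0.14 and 0.12 for the middle of the distribution (5th to 95th percentile). Of the 16 members, 8 lay above the 95th percentile (Slc2a1, Slc2a3, Slc16a3, Aldoa, Tpi1, Pgk1, Pkm and Bnip3) and 0 below the 5th, and the median of the 16 was 0.10 beside -0.01 for the class. Control siRNA was the highest of the 4 arrays for 17 of 35 members and for 13 of the 22 glycolytic ones (59.1%), beside 30.3% of all genes. Rif1 siRNA at 72 h was the lowest array for 12 of these 22, and 32.6% of all genes had their lowest value there.

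**Figure D3:**
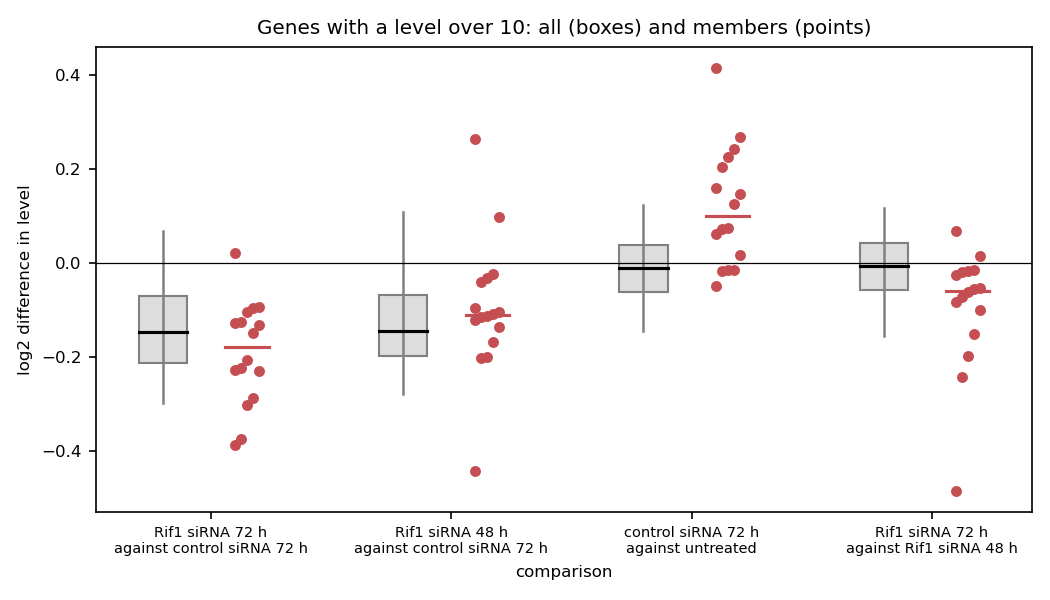
Log2 differences, for each of the 4 comparisons, of all 2551 genes with a level over 10 on every array (box, 25th to 75th percentile with the median as a black line; whisker, 5th to 95th percentile) and of the 16 members among them (red points, median as a red line). In control siRNA against untreated 8 points lie above the whisker, and in Rif1 siRNA at 72 h against control siRNA the 16 points spread around the box.

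Across the pathway, most glycolytic genes read slightly lower with Rif1 siRNA at 72 h than with control siRNA, by about as much as bright genes in general. The median log2 difference was -0.15 over all 35 members, -0.18 over the glycolytic side and -0.13 over the hypoxia side, beside -0.06 over all genes. With untreated cells as the reference they were -0.05, -0.10 and 0.03, beside -0.07 over all genes. The hypoxia median thus changed sign, and the median over all members was not below that of all genes. The bright genes themselves had a median of -0.15, and the 16 bright members had -0.18. Of those 16, 9 lay below the median of bright genes and 7 above, and 3 (Slc16a3, Pgk1 and Bnip3) lay below its 5th percentile of -0.30. When each array was centred on the bright genes, the median over all genes moved from -0.06 to 0.06 and the medians of the members, the glycolytic side and the hypoxia side became -0.03, -0.06 and -0.01. The sign at 72 h changed for 6 of 35 members with that centring and for 7 with quantile normalization, in each case genes within 0.13 of 0. At 48 h the medians were -0.11, -0.11 and -0.09 in the same order, beside -0.06 over all genes. That centring moves every gene alike, and the median over all genes became 0.05. All but the glycolytic median changed sign with it, which shows only that the sign depends on the scaling. The glycolytic median changed sign with quantile normalization (0.02), so no direction is given for the set at 48 h.

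The carriers bring glucose in and move lactate across the membrane. Slc2a1, the ubiquitous glucose transporter GLUT1, read 39.7, 46.3, 45.6 and 39.7, with the value at 72 h of Rif1 siRNA equal to the untreated one and a log2 difference from control siRNA of -0.22. Slc2a3 (GLUT3) read 30.7, 34.0, 40.8 and 34.5 and was highest at 48 h, with differences of 0.26 at 48 h and 0.02 at 72 h. Slc16a3, the lactate exporter MCT4, read 15.5, 18.7, 13.7 and 14.4. It was lower than control siRNA by -0.44 at 48 h and -0.37 at 72 h, and both Rif1 siRNA arrays lay below both others. Slc16a1 (MCT1) was dim and nearly level at 0.0805, 0.0777, 0.0863 and 0.0799. No carrier was past 1.5-fold in any of the 4 comparisons.

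The 9 upper glycolytic genes, from the hexokinases to triose phosphate isomerase, ranged from -0.29 (Tpi1) to 0.03 (Hk2) at 72 h against control siRNA. Aldoa, the main aldolase, read 146, 163, 160 and 152, a difference of -0.11. Tpi1 read 25.7, 30.3, 27.6 and 24.9, so its lower value at 72 h stood beside the untreated one. Gpi1, which isomerizes glucose 6-phosphate, drifted from 63.0 and 62.3 to 60.6 and 58.3. Hk2 was level at 8.80, 8.44, 8.98 and 8.62, and Hk1 differed by -0.09 by a probe that the file places on another chromosome than the gene and by -0.11 and -0.06 by the probes placed at the gene.

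Phosphofructokinase, which catalyzes the committing step, has 3 isoform genes in the set. Pfkl read 2.49, 2.90, 2.62 and 2.51, and Pfkm read 1.99, 2.09, 1.70 and 1.76. The Pfkm probe was spotted 10 times per array with an SD between spots of 0.0351 to 0.0571, so its difference of -0.25 at 72 h and of -0.30 at 48 h exceeded spot noise, which is not the error between cultures. Pfkp read 2.81, 2.55, 3.23 and 2.38 by its brighter probe, a difference of 0.34 at 48 h and -0.10 at 72 h. Its dimmer probe gave -0.30 at 48 h, so the value of Pfkp at 48 h depends on the probe. Aldoc, the brain aldolase, was also highest at 48 h, at 4.34, 4.28, 5.26 and 3.93.

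In lower glycolysis every gene read lower with Rif1 siRNA at 72 h than with control siRNA under the scaling used here, from -0.13 (Gapdh and Pgam1) to -0.44 (Eno2), and Gapdh and Pgam1 turned to 0.05 each with quantile normalization. Gapdh, which oxidizes glyceraldehyde 3-phosphate and is a common reference gene, read 207, 200, 185 and 183. Its 7 probes gave differences from -0.13 to -0.27. Pgk1 read 53.0, 57.8, 50.3 and 46.9, and its differences of -0.30 and -0.31 by 2 probes are the lowest of this group after Eno2. Eno1, the ubiquitous enolase, read 134, 136, 125 and 118 (-0.21), Pgam1 read 99.3, 104, 96.4 and 95.2, and Pkm read 36.5, 42.0, 36.6 and 35.9 (-0.23). The files place the only Eno1 probe and 1 or more probes of Gapdh and Pgk1 on another chromosome than the gene, so near-identical copies of these genes may add to their signals.

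Ldha, the muscle-type lactate dehydrogenase, read 170, 179, 159 and 152, and was lower than control siRNA by -0.17 at 48 h and -0.23 at 72 h. Its other probes gave -0.24 and -0.26 at 72 h. Ldhb, the heart-type subunit, read 25.3, 26.4, 24.7 and 23.8 (-0.15). Pdk1, the kinase that shuts pyruvate dehydrogenase, read 4.60, 4.39, 3.85 and 3.60, with both Rif1 siRNA arrays below both others and a difference of -0.29 at 72 h. The spread between the highest and the lowest of the 4 arrays was 1.17-fold for Ldha and 1.28-fold for Pdk1.

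**Figure D4:**
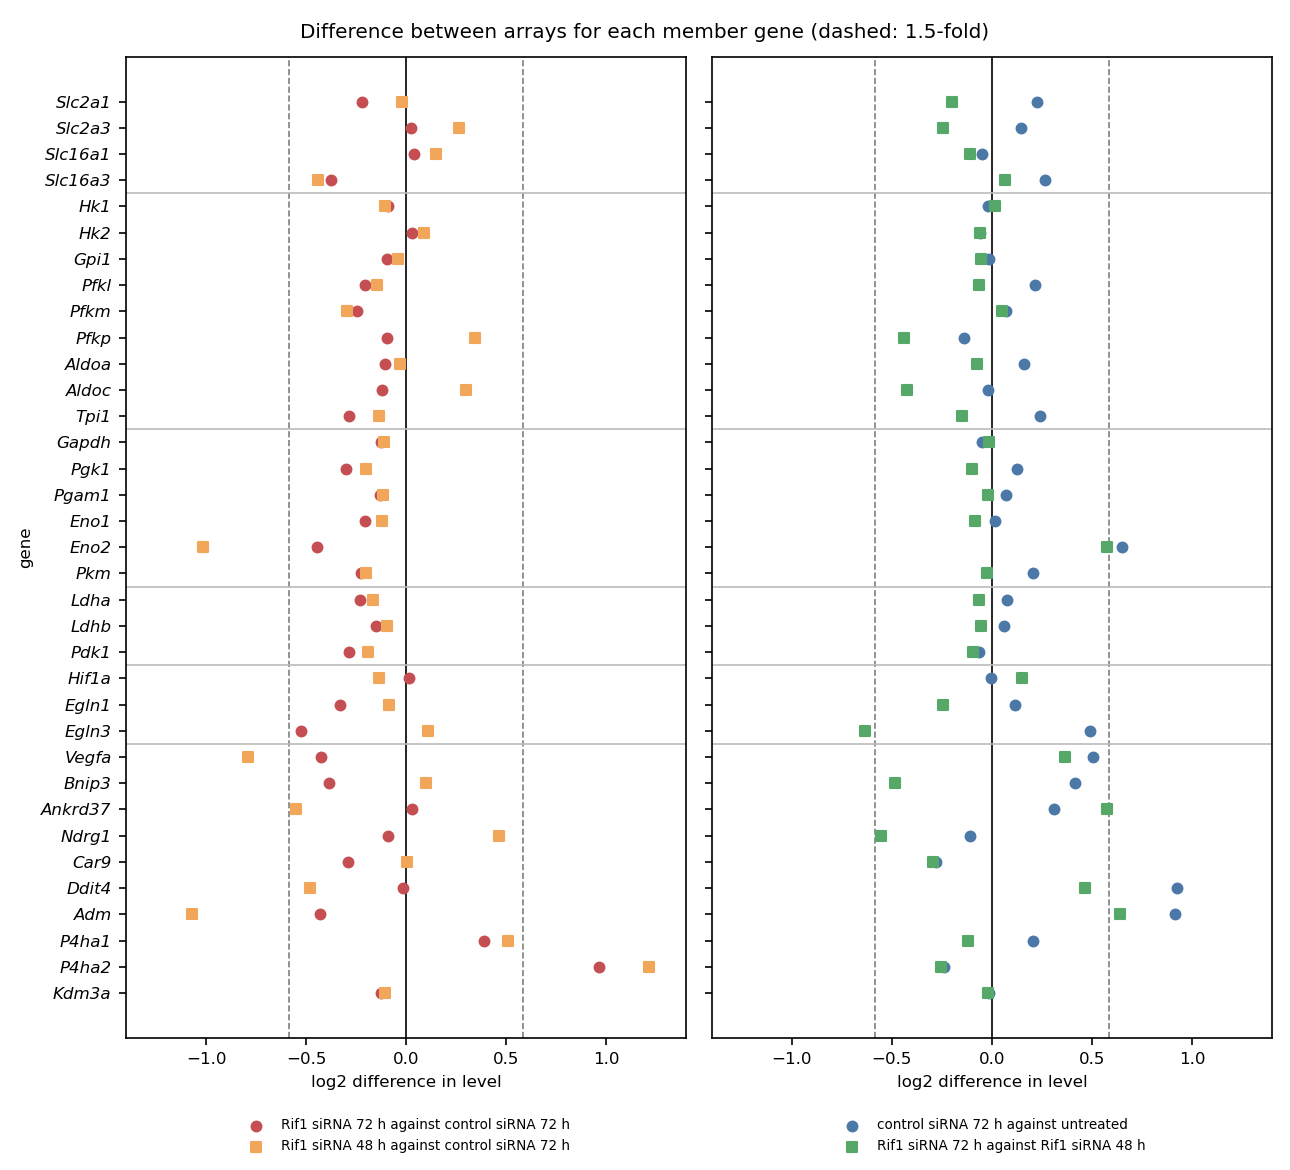
Log2 difference in level of each of the 35 genes (rows, by role, with grey lines between roles). Left, Rif1 siRNA 72 h (red circles) and 48 h (orange squares) against the same control siRNA array; right, control siRNA against untreated (blue circles) and Rif1 siRNA 72 h against 48 h (green squares); dashed lines mark 1.5-fold. On the left P4ha2 alone lies right of the upper line, and Eno2, Vegfa and Adm lie left of the lower line at 48 h.

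Among the oxygen sensing genes, the brighter of 2 Hif1a probes differed by at most 0.15 in the 4 comparisons, and Egln3 differed by up to 0.64. Hif1a read 1.53, 1.53, 1.39 and 1.54, log2 differences of 0.01 at 72 h and -0.14 at 48 h against control siRNA and of 0.15 at 72 h against 48 h. Its second probe was at background on 2 arrays and gave -0.61 in that last comparison, so the value of Hif1a there depends on the probe. Egln3, a prolyl hydroxylase that is itself induced by HIF, read 0.447, 0.628, 0.677 and 0.436. The control siRNA and 48 h arrays were high and the untreated and 72 h arrays low. The difference from control siRNA was -0.53 at 72 h and 0.11 at 48 h, and a second probe gave -0.45 and 0.19. Egln1 was dim, at 0.0397, 0.0430, 0.0404 and 0.0341, with a difference of -0.33 at 72 h.

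The Rif1 siRNA arrays at 72 h and 48 h were also set against each other. At 72 h, 1 member was past 1.5-fold higher, Adm (0.64), against 2.69% of 22603 genes, and 1 was lower, Egln3 (-0.64), against 3.44%, shares of the 35 close to those of all genes. With normexp Adm (0.35) did not pass, and with quantile normalization Ankrd37 and Eno2 (0.59 each) passed too. All 6 primitive endoderm markers read lower in this comparison, 2 of them past 1.5-fold (median -0.46), and their part was not tested. The values that follow did not pass the call. Bnip3, a mitophagy receptor, read 11.1, 14.8, 15.9 and 11.3 with a log2 difference of -0.48 at 72 h against 48 h. Ndrg1, a stress-response gene, read 0.652, 0.605, 0.835 and 0.568, a difference of -0.56. Ankrd37 read 0.790, 0.979, 0.669 and 0.997, with a difference of 0.58, just short of the call, as was Eno2 with 0.57. Ddit4 differed by 0.47 and Vegfa by 0.37, though a second Vegfa probe gave -0.05. Car9, a carbonic anhydrase and a common marker of hypoxia, was dim at 0.108, 0.0890, 0.0892 and 0.0727, highest in untreated cells and lowest at 72 h of Rif1 siRNA.

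Genes of the same pathways outside the set were counted from lists written by role. At 72 h against control siRNA 5.7% of all genes were past 1.5-fold higher and 2.93% lower, with a median of -0.06. In that comparison, 0 of 33 other glycolysis and glucose genes were past 1.5-fold in either direction, with a median of -0.18, and 0 of 11 genes of the HIF machinery, such as Arnt and Vhl, with a median of -0.05. Among 33 other HIF targets 0 were higher and 2 lower, Epo and Selenbp1 (-0.59), with a median of -0.14. Of 18 genes of the tricarboxylic acid cycle 0 were called (median -0.09), and of 10 genes of the pentose phosphate pathway 1 was lower, Tktl1, a transketolase-like gene, at -0.82 (median -0.19). At 48 h against control siRNA, 0 of 32 other glycolysis and glucose genes were past 1.5-fold higher and 1 was lower. Of 32 other HIF targets 0 were higher and 2 lower. Over all genes, 7.25% were past 1.5-fold higher and 3.98% lower at 48 h. In control siRNA against untreated, 25 other HIF targets read higher and 7 lower (median 0.11), beside 9176 and 9447 of all genes (median -0.00). Of the other glycolysis and glucose genes, 18 read higher and 10 lower in that comparison (median 0.02). Epo, the erythropoietin gene, was well above background only on the control siRNA array, with 0.0139, 0.0352, 0.00559 and 0.00762. It was at least 4.62-fold lower at 72 h and at least 4.51-fold lower at 48 h of Rif1 siRNA, bounds set by the dim probe's own signal or the array's lowest signal well above background, whichever was higher, and the untreated array was likewise not well above background for it.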

How the data were processed

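Total RNA of 4 cultures of E14tg2a cells was labelled with Cy3 and hybridized to Agilent mouse arrays, 1 per condition. The authors ran Agilent Feature Extraction (11.5.1.1 per the submitters' processing notes) with default parameters; the deposited files give each spot's processed signal as an intensity, background-subtracted by the software. The authors also deposited a table of linear ratios to the 75th percentile, used as an alternative. Probe positions are on mm9. The methods mention a second experiment, which was not analysed here.

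For each array, log2 of the intensity minus that of its 75th percentile over 43020 non-control spots was taken. Outlier spots (120 to 152 per array) were dropped, and 0 spots were saturated. Spots of a probe were averaged, and a gene was read by its probe with the highest mean among those well above background on at least 2 arrays, or among all its probes where there were none (such as Epo and Mxi1). Where 1 side was dim, a lower bound was given. Precision is limited by having 1 array per condition. Of 58 member probes, 55 matched RefSeq and 5 were placed on another chromosome.

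The members and lists were chosen with earlier results of these data known. The rule for genes named with all 4 levels took members past 1.5-fold in any comparison, the 3 largest rises and falls at 72 h, the brightest of each role group, Hif1a and Rif1; from the other pathway lists, those past 2-fold at 72 h (Epo). The other members, given so that each is accounted for, and Selenbp1, Tktl1 and the collagen genes fall outside it and were picked after their values were seen. Marker lists covered ES cells, the 2C state, fibroblasts, primitive endoderm and trophoblast. Scripts were tested on simulated data. The work was done in R 4.3.3 with limma 3.58.1 (normexp with offset 50 and quantile normalization, as alternatives) and in Python 3.11.15, using numpy 2.4.6, pandas 2.3.3 and matplotlib 3.10.9.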

Additional observations from a re-analysis of the deposited data

How the results depend on the processing

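No paired analysis was possible because there was 1 array for every condition, and for the same reason no replicate could be left out. Besides the processing reported, 11 alternatives were run, of which 2 were chosen after seeing the data (centring on genes with a level over 10, and leaving out probes placed on another chromosome). No called value changed sign. With normexp, 0 members were past 2-fold lower at 48 h against control siRNA, 1 was past 1.5-fold higher in control siRNA against untreated, and 0 were past 1.5-fold higher at 72 h against 48 h; with quantile normalization that last count was 3. Centred on bright genes, 2 members were past 1.5-fold higher and 0 past 2-fold lower at 48 h, and 1 was past 2-fold higher at 72 h. The shares of all genes past the same folds are not given for normexp, quantile normalization or this centring. Those of the processing reported do not serve for them, since the centring moved the 48 h median over all genes from -0.06 to 0.05. With untreated cells as the reference, 3 members were past 1.5-fold higher at 72 h (P4ha2, P4ha1 and Ddit4; 4.47% of 17491 genes well above background on all arrays were), and at 48 h 3 were past 1.5-fold higher (P4ha2, P4ha1 and Egln3; 4.90% of those genes), 0 past 2-fold higher, 0 past 1.5-fold lower (2.91% of those genes) and 0 past 2-fold lower. The other 282 counts and medians stayed within 1.5 times or within 0.256 on the log2 scale. For the medians this is no test of direction, since each lay within 0.256 of 0 and could change sign inside that limit. Of the values of single genes, 24 moved by more than that and 1484 did not, and 18 of the 24 did so with untreated cells as the reference. The cause was not tested. Genes with levels near 0.1 or below lie closest to the array's background.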
